A study of Mus musculus with 6 samples.

Results

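The transcripts of 10 matrix-binding integrin subunits were followed in primary mouse stromal cells cultured on collagen that carried ACLP (col1-ACLP) and on collagen alone (col1). The subunits were chosen by name as the alpha and beta chains through which stromal cells bind collagen, fibronectin, laminin and RGD-containing matrix proteins: *Itga1*, *Itga2*, *Itga3*, *Itga5*, *Itga8*, *Itga11*, *Itgav*, *Itgb1*, *Itgb3* and *Itgb5*. They are 10 of the 56748 genes in the deposited count table, and all 10 passed the filter on low counts that left 17717 tested genes. Of these subunits, *Itga5*, *Itga11*, *Itgb1* and *Itgb5* were named by the study as up-regulated on these same libraries, so their direction here is not independent evidence. The study named them as genes behind a pathway enrichment, and its text does not say that each passed the thresholds for single genes.

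Both groups held cells of WT C57BL/6 mice, male and female, aged 12 weeks. Cells of the stromal vascular fraction, which is what remains of digested fat once its buoyant adipocytes are gone, were taken from the gonadal white depot. They went without passage onto hydrogels of 12 kPa that carried collagen I applied at 0.05 mg/mL, and polyA RNA was sequenced after 48 h. Recombinant ACLP, a secreted collagen-binding protein encoded by *Aebp1*, was present at 30 nM during collagen polymerization for the 3 col1-ACLP libraries and at 0 nM for the 3 col1 libraries. The study calls the libraries of a group biological replicates, and the labels do not tie them to separate animals or cultures. The p-values therefore reflect only how far these libraries spread, and part of that may be technical.

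Integrins are membrane receptors, each made of an alpha and a beta chain. The outer domains bind matrix proteins and the short tails bind talin and kindlin, which link the receptor to actin and switch it to the form with high affinity for ligand. The alpha chain largely sets the ligand: the chains encoded by *Itga1*, *Itga2* and *Itga11* bind collagen with the beta1 chain, that of *Itga5* binds fibronectin, that of *Itga3* binds laminins, and the alphav chain pairs with several beta chains to bind RGD motifs and latent TGFβ. In fibroblasts these receptors carry force between the cell and its matrix.

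The members are related in sequence, so stretches around conserved motifs were compared before their counts. The coding sequence around the conserved motif of the alpha chain tail beside the membrane, and around the metal ion site of the beta chain head, was read from the canonical GENCODE vM39 transcripts on GRCm39. Each stretch runs 5′ to 3′ over 45 bases and the capitals mark the 5 codons of the motif. The collagen receptors, *Itga5* and the beta chains are shown. They include the gene with the highest fold change below (*Itga11*) and those with the highest levels (*Itgb1*, *Itga5* and *Itgb5*). The stretches of *Itga3*, *Itga8* and *Itgav* were compared in the same way and are not shown.
Itga1: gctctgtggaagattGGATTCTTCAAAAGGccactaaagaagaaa
Itga2: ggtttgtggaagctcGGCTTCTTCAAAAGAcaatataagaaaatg
Itga11: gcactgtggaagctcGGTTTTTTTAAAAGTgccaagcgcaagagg
Itga5: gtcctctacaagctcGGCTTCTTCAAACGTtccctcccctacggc
Itgb1: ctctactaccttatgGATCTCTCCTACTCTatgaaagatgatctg
Itgb3: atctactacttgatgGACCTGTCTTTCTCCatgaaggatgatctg
Itgb5: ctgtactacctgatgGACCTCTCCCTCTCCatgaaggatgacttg
Even in the beta chain motif, the pairs shared only 36 to 37 of 45 bases, and the longest run of equal bases was 16. Among the alpha chains the longest equal run in this stretch was 18 bases, between *Itga2* and *Itga5*. Over the whole transcripts, words of 31 bases shared between members were counted, and 4 to 6 such words were found for each of *Itga1*, *Itga2* and *Itga11* and 0 for the other subunits. The sequenced reads were longer than these words, so few reads could match more than 1 member. Sequence shared with genes outside the set was larger for *Itgb5*, with 22.5% of its words also in other annotated genes, and for *Itga1*, with 13.8%, and was at most 6.63% for the rest. *Itga1* also overlaps *Pelo*, a gene on the same strand with 21.6% as many counts, and its values are reported with that uncertainty.

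In these libraries *Itgb1* was the most abundant of the 10 transcripts per length and *Itga8* the least. Levels per length are given as TPM, counts divided by gene length and scaled to the same total in each library, from the deposited counts and the gene lengths of the table. *Itgb1*, whose chain pairs with most of the alpha chains described here, averaged 638 ± 76.0 TPM on col1-ACLP and 556 ± 52.1 TPM on col1 (SD, n = 3 each). *Itga5* followed with 291 ± 27.1 TPM on col1-ACLP and 217 ± 12.4 TPM on col1, and *Itgb5* with 252 ± 54.7 TPM on col1-ACLP and 192 ± 19.7 TPM on col1. The library ranges of *Itga5* and *Itgb5* overlapped within each group, but within every single library *Itga5* was the higher. The nearest were 322.4 against 313.3 TPM in col1-ACLP library 1 and 226.5 against 213.9 TPM in col1 library 1.

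*Itgav* came next at 56.0 ± 12.1 TPM on col1-ACLP and 43.1 ± 12.6 TPM on col1. *Itga3* stood at 22.5 ± 2.35 TPM on col1-ACLP and 30.1 ± 4.31 TPM on col1, and *Itgb3* at 25.1 ± 4.13 TPM on col1-ACLP and 24.2 ± 1.91 TPM on col1. Ranges of *Itga3* and *Itgb3* overlapped in both groups, and those of *Itgav* and *Itga3* overlapped on col1 and not on col1-ACLP. The collagen-binding alpha chains were low beside these. *Itga11* averaged 13.8 ± 5.49 TPM on col1-ACLP and 7.65 ± 1.61 TPM on col1, *Itga1* 4.25 ± 0.849 TPM on col1-ACLP and 3.63 ± 0.382 TPM on col1, and *Itga2* 3.00 ± 0.730 TPM on col1-ACLP and 2.19 ± 0.508 TPM on col1. *Itga8*, which encodes an RGD-binding partner of beta1 known from smooth muscle and kidney mesenchyme, was at 0.371 ± 0.153 TPM on col1-ACLP and 0.370 ± 0.0850 TPM on col1.

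**Figure D1:**
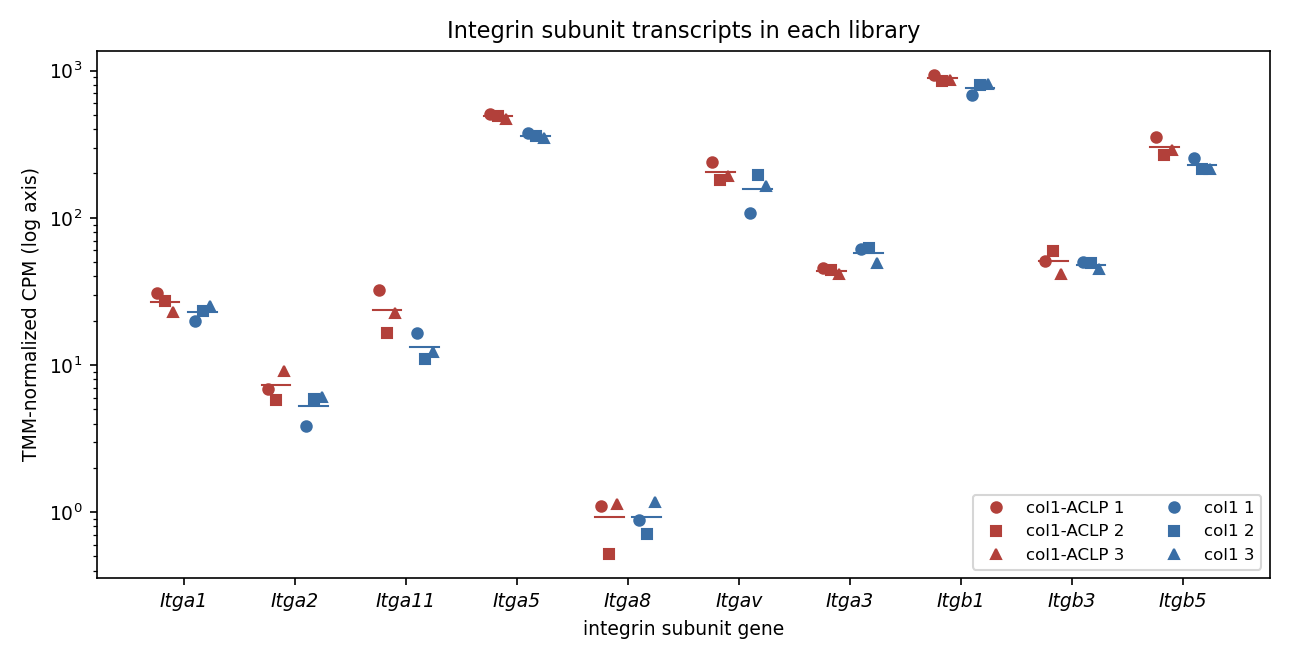
Level of each subunit gene (x axis) in TMM-normalized CPM on a log axis (y axis), with col1-ACLP libraries in red left of the col1 libraries in blue, 1 symbol per replicate and a bar at the group mean. The libraries of *Itga5* sit between 469.8 and 505.5 CPM on col1-ACLP and between 346 and 377 CPM on col1, whereas those of *Itgav* overlap.

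The comparison asked how the subunit transcripts on col1-ACLP differed from those on col1. With edgeR's quasi-likelihood test and Benjamini-Hochberg adjustment over all tested genes, 0 of 10 members were raised and 0 were lowered at the thresholds of the study (a log2 fold change beyond 0.58 in either direction, with the adjusted p below 0.05). Over all genes 0.66% were raised and 0.722% lowered at both. On adjusted p alone 1 of 10 members, *Itga5*, was higher and 0 were lower, where 0.931% of all genes were higher and 1.12% lower. An unadjusted p under 0.05 was reached by 6 of 10 members, against 14.9% of all genes. Both DESeq2 and limma-voom called 1 member raised, *Itga11*. Over all tested genes DESeq2 called 154 of 13834 raised and limma-voom 121 of 17717.

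In TMM-normalized CPM the libraries of the 2 groups did not overlap for 5 members. For 4 of them (*Itga5*, *Itga11*, *Itgb1* and *Itgb5*) every col1-ACLP library was the higher, against 10.2% of all tested genes, and for 1 (*Itga3*) every col1-ACLP library was the lower, against 10.2% of all genes. The 4 are exactly those that the study named from these libraries. In TPM, however, the groups overlapped for *Itga11* (8.86 in col1-ACLP library 2, 9.49 in col1 library 1). They also overlapped for *Itgb1* (578 in col1-ACLP library 2, 596 in col1 library 2) and *Itgb5* (208 in col1-ACLP library 2, 214 in col1 library 1). *Itga5* stayed apart in TPM too, and so did *Itga3*, though barely (25.17 in col1-ACLP library 1, 25.19 in col1 library 3). Of the log2 fold changes of the members 8 of 10 were positive, where 51.1% of all tested genes were, with a member median of 0.31 beside 0.01 over all genes. The 4 members named by the study had a median of 0.42 and the other 6 a median of 0.16. Because the 4 were named from these same libraries, the gap between these medians is no independent evidence.

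**Figure D2:**
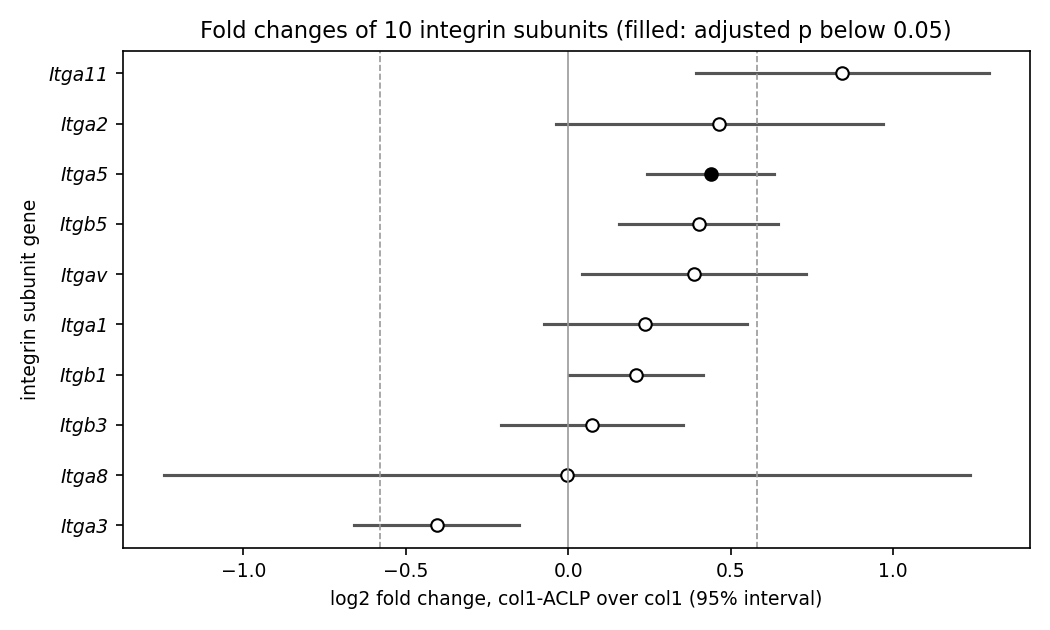
Log2 fold change of each subunit, col1-ACLP over col1, with its 95% interval (x axis), ordered from the highest (*Itga11*, 0.84) to the lowest (*Itga3*, -0.40). The filled point marks the single member with an adjusted p under 0.05 (*Itga5*), dashed lines mark a fold change of 0.58 in either direction, and the interval of *Itga8* is the widest.

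*Itga11* encodes the alpha11 chain, a collagen receptor chain of fibroblasts, and had the highest fold change of the 10. It was counted at 32.1, 16.5 and 22.6 CPM (counts scaled to a common library size with TMM factors) in col1-ACLP libraries 1, 2 and 3, against 16.4, 11.0 and 12.3 CPM in col1 libraries 1, 2 and 3. The groups barely separated, since the lowest col1-ACLP library lay at 16.48 CPM and the highest col1 library at 16.44 CPM. Its log2 fold change was 0.84 ± 0.21 (SE, 95% interval 0.39 to 1.29), a fold of 1.79, with an adjusted p of 0.0506 by edgeR's quasi-likelihood test. That p sits on the threshold. It was 0.00905 by DESeq2, 0.0499 by limma-voom and 0.0656 by edgeR with library totals only. The fold change also rested on col1-ACLP library 1: without it the log2 fold change was 0.56 (adjusted p = 0.266, edgeR), and without col1-ACLP library 2 it was 1.05 (adjusted p = 0.00846, edgeR).

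The promoter of *Itga11* is shown because this gene moved furthest. The RefSeq entry (table build GRCm38.p6) matched GRCm39 once, on the plus strand at chr9:62584887-62585186, and the gene itself (ENSMUSG00000032243) lies at chr9:62585108-62691264.
Itga11: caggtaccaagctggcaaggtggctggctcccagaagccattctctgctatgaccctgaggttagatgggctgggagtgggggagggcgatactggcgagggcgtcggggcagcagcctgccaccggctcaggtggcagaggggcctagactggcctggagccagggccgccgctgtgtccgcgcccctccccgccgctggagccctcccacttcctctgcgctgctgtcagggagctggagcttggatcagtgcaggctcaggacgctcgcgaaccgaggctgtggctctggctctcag
The window runs 5′ to 3′ over 250 bases before and 50 bases after the annotated start. It held none of the 6 motifs searched on both strands: the CArG box, the TEAD motif GGAATG, the AP-1 motif TGANTCA, the GC box GGGCGG, the SMAD motif GTCTAGAC and the TATA motif TATAAA. These were present in 1.63%, 14.7%, 7.81%, 35.7%, 0.213% and 13.6% of the 32851 promoter windows of the same table. A missing match says only that these letters are not in this window.

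The remaining collagen-binding alpha chains, *Itga1* and *Itga2*, overlapped between the groups. *Itga1* (ENSMUSG00000042284, chr13:115089632-115238500, minus strand) encodes the alpha1 chain of smooth muscle, mural and mesenchymal cells. It was counted at 30.7, 27.1 and 22.7 CPM on col1-ACLP, against 20.05, 23.1 and 25.1 CPM on col1. The groups overlapped and the log2 fold change was 0.24 ± 0.15 (adjusted p = 0.492, edgeR). *Itga2* (ENSMUSG00000015533, chr13:114969617-115068636, minus strand), whose chain is best known from platelets and epithelia, was counted at 6.89, 5.82 and 9.14 CPM on col1-ACLP, against 3.85, 5.88 and 6.04 CPM on col1. Here too the groups overlapped, with the low value in col1 library 1, and the log2 fold change was 0.46 ± 0.24 (adjusted p = 0.385, edgeR).

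*Itga5* (ENSMUSG00000000555, chr15:103252713-103275190, minus strand) encodes the alpha5 chain of the main fibronectin receptor of fibroblasts. It was counted at 505.5, 493 and 469.8 CPM on col1-ACLP, against 377, 360.4 and 346 CPM on col1. The groups were well apart and the replicates close, with a coefficient of variation of 3.70% on col1-ACLP and 4.34% on col1, which were the smallest of the 10 members in each group. The log2 fold change was 0.44 ± 0.09 (SE, 95% interval 0.24 to 0.63), a fold of 1.36, with an adjusted p of 0.0189 by edgeR's quasi-likelihood test. The upper end of the interval lies just past 0.58 and the estimate below it, so the gene passed the test and missed the fold minimum. Leaving out each library in turn gave log2 fold changes of 0.40 to 0.47 and adjusted p (edgeR) of 0.0260 to 0.132.

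The promoter of *Itga5* is shown beside that of *Itga11* because this was the member with an adjusted p under 0.05. The RefSeq window matched GRCm39 once, on the minus strand at chr15:103275169-103275468, and the capitals mark GC boxes, here in their reverse complement.
Itga5: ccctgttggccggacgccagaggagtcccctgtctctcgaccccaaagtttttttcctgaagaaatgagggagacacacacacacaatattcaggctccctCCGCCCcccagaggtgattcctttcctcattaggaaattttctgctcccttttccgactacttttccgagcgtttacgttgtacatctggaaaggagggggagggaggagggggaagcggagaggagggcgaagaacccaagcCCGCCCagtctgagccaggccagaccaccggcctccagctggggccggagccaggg
This window held 2 GC boxes and none of the other 5 motifs. Of the 10 members, 9 had a RefSeq window, 10 windows in all, and none of these held a CArG box, the motif of the serum response factor. Only 1.63% of all promoter windows hold that motif, so its absence from so few windows says little. None held the SMAD or the TATA motif either. A match is a description of the letters and not a binding site.

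The other RGD-binding alpha chains did not pass the test. *Itgav* (ENSMUSG00000027087, chr2:83554741-83637260, plus strand) encodes the alphav chain, which binds vitronectin, fibronectin and latent TGFβ. It was counted at 238, 181 and 192 CPM on col1-ACLP, against 108, 194 and 165 CPM on col1. The groups overlapped, and col1 library 1 stood far below the rest. The log2 fold change of 0.39 ± 0.16 (adjusted p = 0.27, edgeR) became 0.18 without that library and 0.57 without col1 library 2. *Itga8* (ENSMUSG00000026768, chr2:12111443-12306733, minus strand) was counted at 1.10, 0.5205 and 1.14 CPM on col1-ACLP, against 0.889, 0.707 and 1.17 CPM on col1. Such levels lie above the 0.0624 to 0.0889 CPM that 3 counts give in these libraries but leave a 95% interval of the log2 fold change of -1.24 to 1.24, so a difference was not detectable at this depth.

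*Itga3* (ENSMUSG00000001507, chr11:94935300-94967627, minus strand) encodes the alpha3 chain, a laminin receptor chain of epithelia, mesothelium and stroma. It was the single member with lower counts in every col1-ACLP library, at 45.7, 44.0 and 41.4 CPM, against 61.4, 62.5 and 49.6 CPM on col1. The log2 fold change was -0.40 ± 0.12 (SE, 95% interval -0.66 to -0.15) with an adjusted p of 0.1 by edgeR and 0.0297 by DESeq2. Leaving out each library in turn kept the sign, at -0.52 to -0.36. The laminin chains that alpha3 binds were fixed as a list of 7 and 0 of them were raised or lowered by edgeR (1 reached an unadjusted p under 0.05), with a median log2 fold change of 0.07. Among these *Lamc1*, the common gamma chain, had 0.19 ± 0.11 and *Lamb1* 0.18 ± 0.10.

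*Itgb1* (ENSMUSG00000025809, chr8:129412135-129459681, plus strand) encodes the beta1 chain. It was counted at 938, 856 and 862 CPM on col1-ACLP, against 685, 801 and 811 CPM on col1. In CPM the groups did not overlap, though the gap of the nearest libraries was small beside the spread on col1. The log2 fold change was 0.21 ± 0.10 (SE, 95% interval 0.00 to 0.42) with an adjusted p of 0.333 by edgeR, and it was 0.13 without col1 library 1, the lowest.

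*Itgb5* (ENSMUSG00000022817, chr16:33650035-33769708, plus strand) encodes the beta5 chain, which pairs with alphav as a vitronectin receptor. It was counted at 354, 268.5 and 287 CPM on col1-ACLP, against 256.5, 216 and 216 CPM on col1. In CPM the groups did not overlap, and within each group library 1 was the highest. The log2 fold change was 0.40 ± 0.12 (SE, 95% interval 0.16 to 0.65) with an adjusted p of 0.092 by edgeR and 0.0186 by DESeq2, and it was 0.27 without col1-ACLP library 1. *Itgb3* (ENSMUSG00000020689, chr11:104498826-104561302, plus strand), whose chain forms the other main alphav receptor of matrix and the platelet fibrinogen receptor, was counted at 50.7, 59.6 and 41.5 CPM on col1-ACLP, against 50.4, 49.1 and 44.8 CPM on col1. Its groups overlapped and its log2 fold change was 0.07 ± 0.13 (adjusted p = 0.867, edgeR).

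The pool of subunits was also described as a composition. The 7 alpha chains summed to 446, 359 and 369 TPM on col1-ACLP, against 303, 323 and 286 TPM on col1. The 3 beta chains summed to 1064, 815 and 865 TPM on col1-ACLP, against 737, 806 and 774 TPM on col1. In both sums the groups did not overlap, and the exact permutation test (two-sided) gave p = 0.1, the smallest that 3 against 3 libraries allow. In all 15 such shares, sums and ratios were tested, and the Benjamini-Hochberg adjusted p of each was at least 0.45.

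*Itga5* made up most of the summed TPM of the member alpha chains in every library. Its share was 74.6% ± 2.23 on col1-ACLP and 71.5% ± 3.10 on col1 (SD, n = 3 each, exact permutation p = 0.3). With all integrin alpha chains in the pool its mean share was 59.2% on col1-ACLP and 53.9% on col1. The share of *Itga3* was 5.65%, 5.93% and 5.69% on col1-ACLP, against 10.5%, 10.3% and 8.79% on col1. These groups did not overlap, with a difference of -4.11 percentage points and an exact permutation p of 0.1, and *Itga3* was the single subunit whose share separated the groups. The size of this difference depended on the pool: with all integrin alpha chains included it was -2.89 percentage points. The share of *Itgav* was 14.2% ± 1.33 on col1-ACLP and 14.1% ± 3.77 on col1 (exact permutation p = 0.9).

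The chain encoded by *Itga10* also binds collagen and is not among the 10. Within the 3 collagen-binding alpha chains of the set *Itga11* held 70.5%, 58.5% and 63.8% of the TPM on col1-ACLP, against 66.4%, 50.9% and 52.2% on col1. The groups overlapped (exact permutation p = 0.3), so these libraries neither show nor exclude a shift toward *Itga11* within the collagen receptors. Among the beta chains *Itgb1* held 69.9% ± 1.63 on col1-ACLP and 72.0% ± 3.84 on col1 (exact permutation p = 0.5, n = 3 each). The summed alpha TPM divided by that of *Itgb1* was 0.616, 0.620 and 0.603 on col1-ACLP, against 0.609, 0.542 and 0.498 on col1, and these overlapped too (exact permutation p = 0.2).

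**Figure D3:**
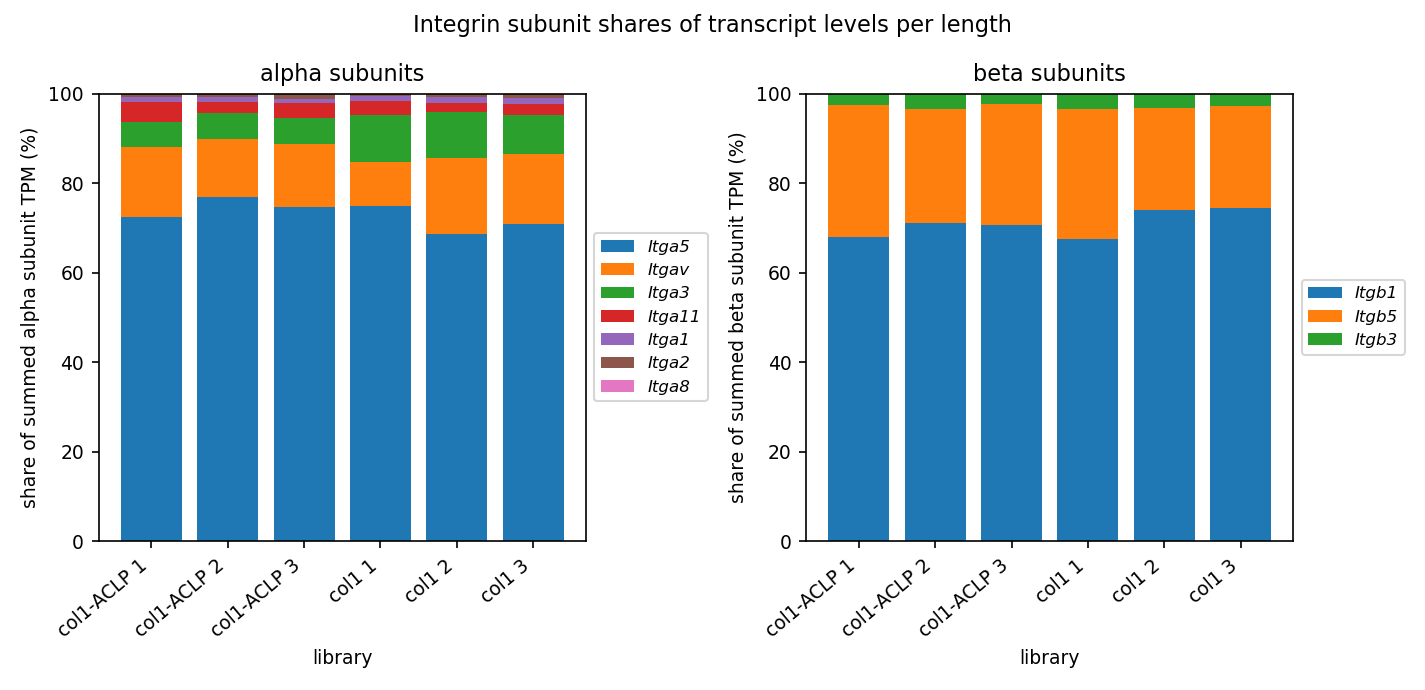
Stacked shares of the summed TPM (y axis, percent) of the 7 alpha subunits on the left and the 3 beta subunits on the right, in each library (x axis, col1-ACLP then col1). *Itga5* and *Itgb1* fill most of every bar, and the *Itga3* segment is narrower on col1-ACLP (5.65% to 5.93%) than on col1 (8.79% to 10.5%).

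The other integrin subunits give the background of the family. Of 17 other subunits 15 were tested, and 0 were raised or lowered by edgeR, DESeq2 or limma-voom, with a median log2 fold change of 0.07. An unadjusted p under 0.05 was reached by 1 of them. Those with the highest mean CPM, a scale not corrected for length, were *Itgb2*, the beta chain of leukocyte integrins, at 105, 80.2 and 85.8 CPM on col1-ACLP, against 98.8, 87.3 and 94.7 CPM on col1 (log2 fold change -0.05 ± 0.12), and *Itga6*, a laminin receptor chain, at 0.09 ± 0.11. *Itgam*, the myeloid partner of *Itgb2*, had a log2 fold change of 0.05 ± 0.16. The single other subunit whose groups did not overlap was *Itgb6*, named here after its values were seen, at 0.351, 0.272 and 0.136 CPM on col1-ACLP, against 0.800, 0.644 and 1.404 CPM on col1 (adjusted p = 0.233, edgeR).

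Proteins that bind the integrin tails and switch the receptors were a list of 25 genes, of which 24 were tested. By edgeR 0 of them met both thresholds, 8 reached an unadjusted p under 0.05, 4 of them higher, and the median log2 fold change was 0.01. *Fermt2*, encoding kindlin-2, the kindlin of fibroblasts, was counted at 170, 162 and 164 CPM on col1-ACLP, against 104, 127 and 126 CPM on col1. Its groups did not overlap and its log2 fold change was 0.47 ± 0.11 (adjusted p = 0.0264, edgeR). The other gene with an adjusted p under 0.05, *Tln2* for talin-2, was named after its values were seen and had 0.55 ± 0.13 (adjusted p = 0.0396, edgeR). The more abundant talin gene *Tln1* had 0.09 ± 0.11 and *Flna*, encoding the actin crosslinker filamin A, 0.23 ± 0.10 (adjusted p = 0.296, edgeR).

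*Ilk*, which encodes a kinase-like scaffold at the beta tail, was the tail binder left untested, with 0 to 14 counts per library. It overlaps *Rrp8* and *Taf10* on the other strand, which had 925 to 1438 and 3276 to 4212 counts, so its counts cannot be read as its level. Of the 8 genes of integrin trafficking 0 were raised or lowered by edgeR and 1 reached an unadjusted p under 0.05. Their median log2 fold change was -0.10. *Dab2*, an endocytic adaptor for integrins, had -0.08 ± 0.11, and *Rab11b*, a recycling GTPase, had -0.22 ± 0.10 (adjusted p = 0.326, edgeR). Of 11 other receptors of collagen and matrix 10 were tested and 0 were raised or lowered by edgeR, with 1 at an unadjusted p under 0.05 and a median of 0.00. *Sdc4*, a heparan sulfate coreceptor for fibronectin, had -0.17 ± 0.10, *Mrc2*, an endocytic collagen receptor, 0.20 ± 0.12, and *Sdc1* 0.23 ± 0.10 (adjusted p = 0.31, edgeR).

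Several ligands of these receptors passed both thresholds. Of 5 fibrillar collagen chains 3 were raised at both thresholds and 4 were higher on adjusted p alone, with a median log2 fold change of 0.63. *Col5a2*, a chain of the collagen that nucleates fibrils, was counted at 1490, 983 and 1103 CPM on col1-ACLP, against 674, 659 and 577 CPM on col1 (log2 fold change 0.91 ± 0.13, adjusted p = 0.00112, edgeR). Every col1-ACLP library lay above every col1 library. *Col1a1* rose by 0.79 ± 0.14 and *Col5a1* by 0.63 ± 0.13, whereas *Col3a1*, with the highest mean CPM of the list (not corrected for length), stood at 0.40 ± 0.14 (adjusted p = 0.159, edgeR).

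Of 16 ligands of RGD-binding and alphav integrins 15 were tested, 5 were raised, 1 was lower on adjusted p alone and the median was 0.38. *Postn*, encoding periostin, a ligand of alphav receptors, had the largest change at 672, 585 and 509 CPM on col1-ACLP, against 244, 236 and 240 CPM on col1 (log2 fold change 1.29 ± 0.11, edgeR). *Ccn2*, encoding connective tissue growth factor, rose by 1.23 ± 0.13, and *Tnc*, encoding tenascin-C, by 0.89 ± 0.12. *Fbn1*, for the microfibril protein fibrillin-1, rose by 0.73 ± 0.17 and *Tgfb3* by 0.69 ± 0.13.

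Fibronectin, the ligand of the alpha5 receptor, was close to the thresholds without passing. *Fn1* was counted at 2053, 1239 and 1314 CPM on col1-ACLP, against 1039, 1087 and 983 CPM on col1, with a log2 fold change of 0.57 ± 0.15 (adjusted p = 0.0554, edgeR). Its col1-ACLP library 1 stood above the others, as it did for *Itga11* and *Itgb5*. *Ccn1*, which encodes another alphav ligand, had -0.11 ± 0.11. The gene lower on adjusted p alone was *Ltbp1*, a carrier of latent TGFβ, named after its values were seen (-0.50 ± 0.10, adjusted p = 0.0132, edgeR). The study named *Col1a1*, *Col1a2*, *Fn1*, *Tnc*, *Postn* and *Ccn2* as raised on these libraries, so these lists are not independent evidence of direction.

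**Figure D4:**
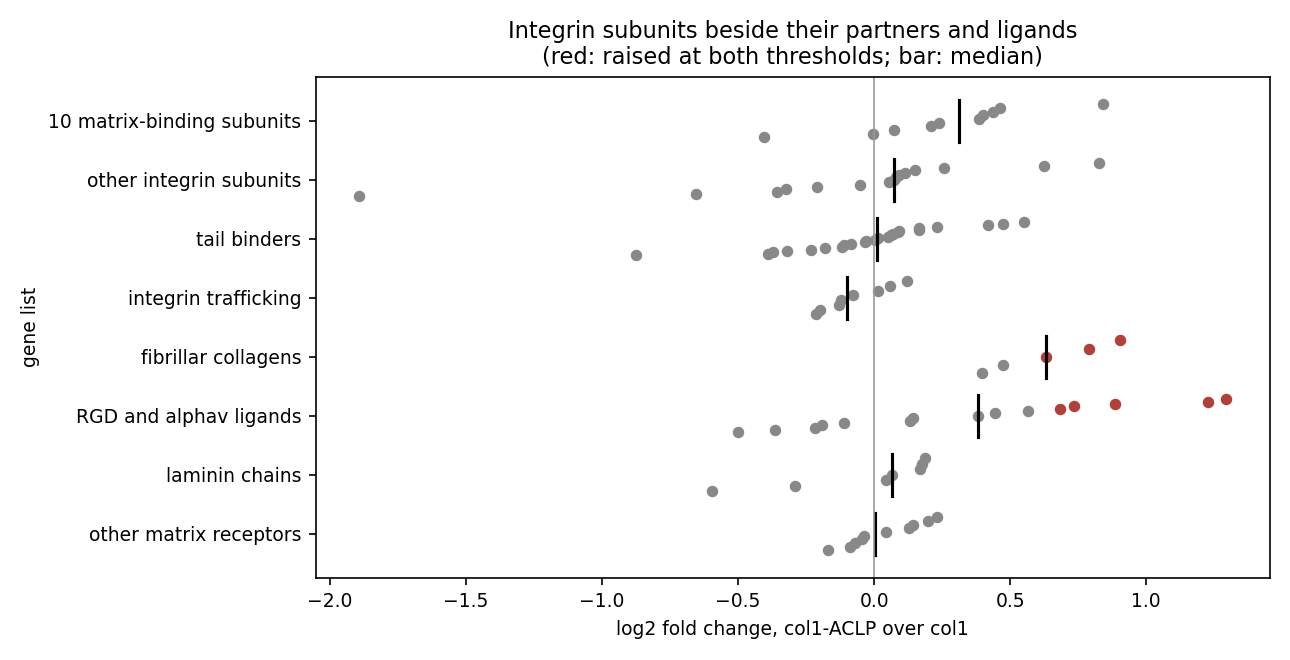
Log2 fold change, col1-ACLP over col1 (x axis), of each tested gene in 8 lists (y axis), with a point per gene, a bar at the median of the list and red for genes raised at both thresholds. Red points appear among the fibrillar collagens (3) and the RGD and alphav ligands (5), and none of the 10 matrix-binding subunits is red.

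The libraries differed in ways that touch these values. They held 33343651 to 47142754 counts each. Of the 10 members, 6 had their highest CPM in col1-ACLP library 1 and 4 had their lowest in col1 library 1, the library with the fewest counts. Those 6 were *Itga1*, *Itga5*, *Itga11*, *Itgav*, *Itgb1* and *Itgb5*, and without that library their log2 fold changes stayed positive, at 0.13 (*Itga1*) to 0.56 (*Itga11*).

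The fraction is a mixture, and in bulk libraries fewer cells of a type and less RNA per cell cannot be told apart. Stromal markers were high, with *Pdgfra* at 894 CPM on col1-ACLP and 982 CPM on col1. The 9 stromal markers summed to 17590 to 25960 CPM on col1-ACLP and 16310 to 19050 CPM on col1, 1 being raised (*Col1a1*) and 2 lowered (*Ly6a* and *Pi16*). *Col1a1* and *Col3a1* carried most of that sum, with means of 8682 and 9061 CPM on col1-ACLP and 5018 and 6880.5 CPM on col1, while the median log2 fold change of the list was -0.27. *Dcn*, encoding decorin, was at -0.57 ± 0.10 (adjusted p = 0.00668, edgeR). The 10 macrophage markers summed to 585 to 672 CPM on col1-ACLP and 585 to 716 CPM on col1, with 0 called by edgeR. The 8 endothelial markers summed to 819 to 975 CPM on col1-ACLP and 895 to 1060 CPM on col1, and the 8 mural markers to 368 to 483 CPM on col1-ACLP and 364 to 389 CPM on col1, with 0 called in either list.

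*Itga3* is also expressed by many epithelia and by mesothelium. The 8 mesothelial markers summed to 262 to 294 CPM on col1-ACLP and 250.0 to 350.3 CPM on col1, with 1 lowered (*Upk3b*, -0.93 ± 0.22) and a median log2 fold change of -0.23. The 6 platelet and megakaryocyte markers, which bear on *Itgb3* and *Itga2*, summed to 238 to 290.1 CPM on col1-ACLP and 238 to 328 CPM on col1, with 0 called, and *Gp1bb* and *Gp9* had 0 counts in at least 1 library. Nearly all of that sum was *Pf4*, with means of 247 CPM on col1-ACLP and 257 CPM on col1, beside 6.97 CPM on col1-ACLP and 8.95 CPM on col1 for *Itga2b*. The 7 mast cell markers summed to 28.7 to 36.8 CPM on col1-ACLP and 39.8 to 44.2 CPM on col1, with 3 lowered and 3 at 0 counts in at least 1 library. The 6 adipocyte markers summed to 254 to 370.5 CPM on col1-ACLP and 323 to 446 CPM on col1 and the 9 T and B lymphocyte markers to 0.576 to 1.18 CPM on col1-ACLP and 1.16 to 2.60 CPM on col1. The part of these cell types in the subunit values was not tested.

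**Figure D5:**
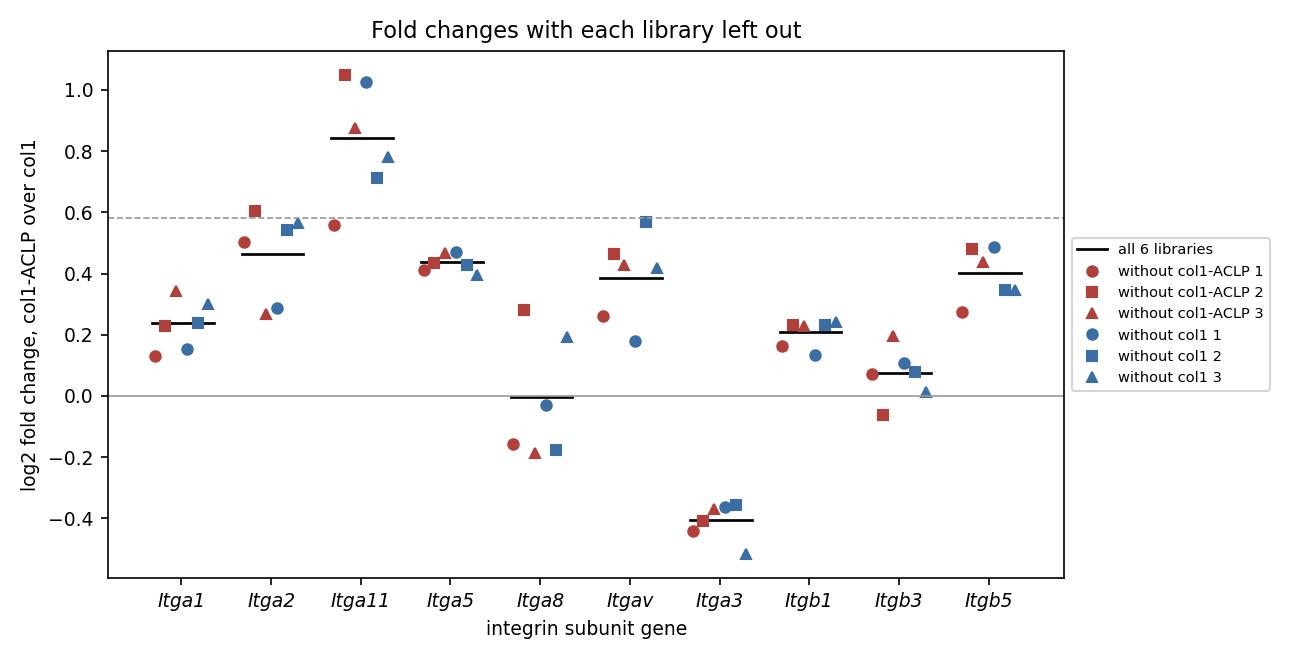
Log2 fold change, col1-ACLP over col1 (y axis), of each subunit (x axis) with all 6 libraries (black bar) and without each library in turn (red without a col1-ACLP library, blue without a col1 library). The points of *Itga5* lie between 0.40 and 0.47, those of *Itga11* between 0.56 and 1.05, and *Itga8* and *Itgb3* cross 0.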

How the data were processed

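PolyA RNA was sequenced as paired reads from 3 col1-ACLP and 3 col1 libraries. The authors deposited whole-number raw counts for each gene together with its position, biotype and length. According to the submitters' processing notes reads were mapped with HISAT2 to mm10, while GRCm39 is the build in the study's methods. The members' starts in the table lay within 543 bases of GENCODE vM39 on GRCm39, so that build was used for coordinates. How reads were counted, with or without strand, and how reads with several matches were handled is not given in the sources used here. Of the per-sample columns 0 belonged to other samples. 

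Genes were filtered with filterByExpr (minimum count 10, minimum total 15), scaled by TMM and tested with edgeR 4.0.16 (glmQLFit and glmQLFTest, two-sided, group as the only factor) in R 4.3.3, with Benjamini-Hochberg adjustment over 17717 genes. Code was tested on simulated data. DESeq2 1.42.0, which the study used, limma 3.58.1 (voom), other scalings, no filter, a replicate block and leaving out each library were alternatives. TPM were computed from counts and table lengths. Intervals are at 95%, and replicates differed by more than sampling noise (chi-square per degree of freedom 22.3 to 61.4).

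The members and lists were chosen with earlier results of these data known. Besides the 10 members, the genes named are the 3 other integrin subunits with the highest mean CPM and any with an adjusted p under 0.05, and in each further list the genes past both thresholds and the 2 with the highest mean CPM, with the gene of smallest p where none passed both. Of the genes that this rule names, 1 is not reported here.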

Additional observations from a re-analysis of the deposited data

How the results depend on the processing

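Of 130 fold changes of members under alternatives, 121 kept their direction and their combined call at both thresholds, though some of these crossed 1 of the 2: the adjusted p (edgeR) of *Itga5* reached 0.132 without col1 library 3, and those of *Itga3* and *Itgb5* were 0.0297 and 0.0186 by DESeq2. The count of raised members, 0 by edgeR, became 1 under DESeq2, limma-voom, DESeq2 size factors in edgeR, no filter on low counts and without col1-ACLP library 2 (*Itga11* each time), and 1 on adjusted p with no fold minimum (*Itga5*). The count ranged from 0 to 1 with each library left out, and the lowered count was 0 throughout. Over all tested genes, 154 of 13834 were raised by DESeq2 and 121 of 17717 by limma-voom. By edgeR 119 of 17717 were raised with DESeq2 size factors, 200 of 31605 with no filter and 166 of 18578 without col1-ACLP library 2. Without col1-ACLP library 2 the log2 fold change of *Itgb3* was -0.061 and that of *Itga8* 0.28, and that of *Itga8* was 0.19 without col1 library 3, each with the sign turned. Over all 6 omissions *Itga8* ranged from -0.19 to 0.28 and *Itgb3* from -0.061 to 0.20. With each library left out the difference in the *Itga11* share of collagen-binding chains ranged from 4.64 to 12.7 percentage points and that of the alpha to *Itgb1* ratio from 0.0377 to 0.0934. Using canonical transcript lengths, an alternative chosen after seeing the data, gave 8.504 and 0.0904. The level of the *Itga11* share depended on the setting. Its mean was 64.3% on col1-ACLP and 56.5% on col1 with the table lengths, and 55.6% and 47.1% with canonical lengths. With all integrin subunits in the pool, which adds *Itga10*, it was 56.7% and 47.6%.

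The labels do not say whether libraries with the same replicate number were paired. Deviations from the group mean correlated at -0.0183, -0.0105 and -0.0295 between same-numbered libraries. With 3 libraries a group, such correlations cannot decide whether the libraries were paired. With the replicate number as a block, 1 member was raised (*Itga11*, log2 fold change 0.81, adjusted p = 0.0240) and the adjusted p of *Itga5* was 0.0594, both by edgeR. Over all genes 101 of 17717 were raised with this block.

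With 3 libraries a group, exact permutation tests of single values cannot go below p = 0.1, and the low counts of *Itga8* and *Itgb6* limit their fold changes.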
